A study of Mus musculus with 9 samples.

Results

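The guanylate-binding proteins (GBPs) are a family of large GTPases, and 10 of them were followed here in mouse hearts after myocardial infarction: Gbp2, Gbp2b, Gbp3, Gbp4, Gbp5, Gbp6, Gbp7, Gbp8, Gbp9 and Gbp10. Members were taken by gene symbol from the deposited expression table, and the family was chosen with its levels in these hearts already known. The 10 symbols covered 11 gene IDs and 22 transcripts of the 25468 gene IDs and 55361 transcripts in the table, because Gbp6 stood for a pair of gene IDs, ENSMUSG00000104713 (called Gbp6 below) and ENSMUSG00000079362 (called the second Gbp6 locus). Bulk RNA sequencing of heart RNA gave the levels in 9 libraries from wild-type mice. Of these, 3 were from sham-operated hearts, 3 from hearts 1 day and 3 from hearts 7 days after surgery that caused an acute myocardial infarction, the death of heart muscle after a coronary artery is blocked. No transgene or drug is named for any group, the labels give neither the age of the mice nor the day of the sham hearts, and both times share the 3 sham libraries as their control. Levels are FPKM (sequenced fragments scaled to transcript length and library size), summed over the transcripts of a gene, and the number of reads behind them is unknown.

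GBPs are made in most cells when interferon gamma, or to a lesser degree type I interferon, activates transcription factors such as IRF1. They bind and hydrolyse GTP, assemble on the membranes of vacuoles that hold bacteria or parasites, and can open them to the sensors of the inflammasome. They act together with a second interferon-induced family, the immunity-related GTPases (IRGs). In the mouse, the genes lie in a cluster on chromosome 3 (Gbp5, Gbp7, Gbp3, Gbp2b and Gbp2) and another on chromosome 5 (Gbp8, Gbp9, Gbp4, Gbp10 and Gbp6).

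The promoters of the chromosome 3 members carried the motif of interferon-regulated genes. The RefSeq promoter table (GRCm38.p6, 250 bases before to 50 after each start, another build than the authors') held 6 promoters of 5 members, all on chromosome 3, and Gbp4, Gbp6, Gbp8, Gbp9 and Gbp10 were not matched. The core of the interferon-stimulated response element, searched as GAAANNGAAA on both strands, was found for 5 of 5 members, in 5 of the 6 promoters, against 3.44% of 32851 promoters of the same length. The motif TTCNNNGAA, a form of the gamma-activated sequence, was found for Gbp5 and Gbp7 against 8.30% of those promoters. Such matches are letters in a window and no measure of binding. Shown are Gbp3 and Gbp2, which had the greatest and the smallest fold difference of the chromosome 3 members at day 1, and Gbp7, which has both motifs. All are on the + strand, at chr3:142559794-142560093 for Gbp3, chr3:142530086-142530385 for Gbp7 and chr3:142620413-142620712 for Gbp2, with both motifs in capitals.
Gbp3: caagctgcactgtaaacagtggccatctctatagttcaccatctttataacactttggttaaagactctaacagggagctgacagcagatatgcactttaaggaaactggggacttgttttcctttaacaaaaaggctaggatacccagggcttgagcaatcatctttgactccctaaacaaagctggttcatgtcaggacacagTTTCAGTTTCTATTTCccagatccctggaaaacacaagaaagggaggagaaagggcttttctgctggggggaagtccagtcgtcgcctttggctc
Gbp7: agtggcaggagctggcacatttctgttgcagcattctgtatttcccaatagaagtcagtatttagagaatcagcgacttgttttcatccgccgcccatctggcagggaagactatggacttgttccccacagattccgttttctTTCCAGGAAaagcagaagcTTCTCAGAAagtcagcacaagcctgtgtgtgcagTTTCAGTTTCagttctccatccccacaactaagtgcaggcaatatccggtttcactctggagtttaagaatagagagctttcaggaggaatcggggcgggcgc
Gbp2: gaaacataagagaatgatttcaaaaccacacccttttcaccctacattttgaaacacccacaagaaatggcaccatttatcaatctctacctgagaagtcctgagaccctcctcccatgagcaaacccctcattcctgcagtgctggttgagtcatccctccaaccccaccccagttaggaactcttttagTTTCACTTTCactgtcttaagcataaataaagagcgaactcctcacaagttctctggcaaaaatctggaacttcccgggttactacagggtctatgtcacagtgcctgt
The response element began 45 and 39 bases before the start in Gbp3, where 2 matches overlap, 53 bases before it in Gbp7 and 59 in Gbp2. In Gbp2b and Gbp5 it lay 137 and 165 bases before the start. The promoter of a second Gbp3 start had neither motif.

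The summed GBP level was 472, 518 and 351 FPKM in the sham libraries, 106, 160.4 and 70.6 after 1 day and 85.3, 97.1 and 89.8 after 7 days. Every library after infarction lay below every sham library, and the range at day 7 lay within that at day 1. The mean went from 447 ± 86.5 FPKM (SD, n = 3) in sham to 112 ± 45.2 at day 1 and 90.7 ± 5.94 at day 7, or 25.2% and 20.3% of the sham level. By limma, fitted over all 13514 genes with a mean of 1 FPKM or more and called at a Benjamini-Hochberg adjusted p under 0.05, 9 of the 11 loci were called lower at day 1 and 9 at day 7. Of all genes tested, 14.7% were called lower at day 1 and 17.3% at day 7. No locus was called higher, against 13.4% of all genes at day 1 and 15.7% at day 7. In 10 of 11 loci all 3 libraries lay below all 3 sham libraries at each time, against 25.1% of all genes at day 1 and 28.8% at day 7. The members were chosen on these same comparisons, so the counts describe them and are given without p-values. The median log2 fold change of the 11 loci was -1.47 at day 1 and -1.66 at day 7, against -0.01 and -0.02 for all genes. In bulk RNA, fewer cells of a type and less RNA per cell cannot be told apart.

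**Figure D1:**
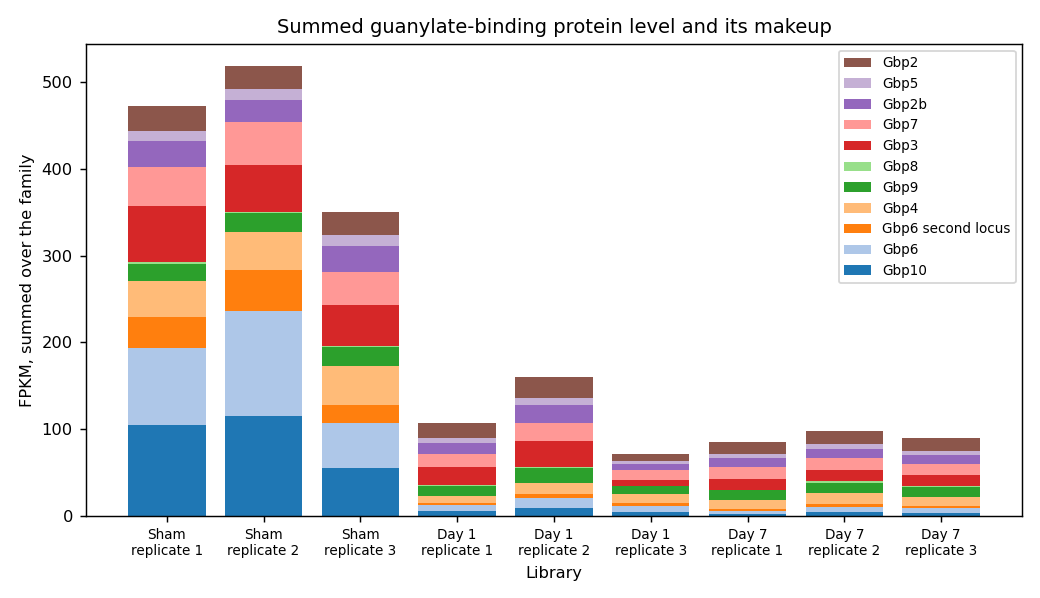
Summed FPKM of the GBP family in each of the 9 libraries (x axis), stacked by locus. The 3 sham bars stand between 351 and 518 FPKM and the 6 bars after infarction between 70.6 and 160.4, with most of the loss in Gbp10, Gbp6 and the second Gbp6 locus together.

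Gbp10 and Gbp6, which take part in defence against bacteria inside cells, had the highest mean levels of the family in sham and fell the most. Gbp10 was at 104, 115 and 55.0 FPKM in the sham libraries, 4.91, 8.85 and 4.28 after 1 day and 1.90, 4.43 and 2.71 after 7 days. Sham replicate 3 was low among the sham libraries, yet far above every library after infarction. On the log2(FPKM + 1) scale, on which all fold changes here are given, Gbp10 fell by 3.71 (SE 0.35) at day 1 and by 4.50 (SE 0.35) at day 7.

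Gbp6 followed the same course. It was at 89.5, 121 and 52.2 FPKM in the sham libraries, 7.22, 11.7 and 7.14 after 1 day and 3.42, 5.93 and 6.03 after 7 days. All 3 day 7 libraries lay below all 3 day 1 libraries, which held for no other locus. The share of all genes with that order was not counted, and limma did not call the difference (-0.66, SE 0.32). Gbp6 fell by 3.15 (SE 0.32) at day 1 and by 3.80 (SE 0.32) at day 7 on the log2 scale. Of the 13514 genes, counted from the lowest fold change at day 1, Gbp10 was number 5 and Gbp6 number 6.

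The second Gbp6 locus was at 34.8, 47.4 and 20.4 FPKM in the sham libraries, 2.60, 4.91 and 3.34 after 1 day and 1.95, 2.76 and 2.60 after 7 days. It fell by 2.88 and 3.29 (SE 0.29) on the log2 scale and was number 9 at day 1. These 3 values are not independent, because the loci have nearly the same sequence. In the GENCODE M21 annotation (GRCm38), where the second locus is named Gm43302, its transcript matches that of Gbp6 over 2603 bases with 99.8% identity and that of Gbp10 over 3518 bases with 98.5%. Of all stretches of 100 bases in its transcript, 98.8% also occur in another gene, against 82.9% for Gbp6 and 70.9% for Gbp10. The sources used here do not say how reads were divided among them, so the split between these loci is uncertain.

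Summed, the 3 loci were at 229, 283 and 128 FPKM in the sham libraries, 14.7, 25.4 and 14.8 after 1 day and 7.28, 13.1 and 11.3 after 7 days. They made up 46.5% ± 9.27 (SD, n = 3) of the family's FPKM in sham, 16.9% ± 3.64 at day 1 and 11.6% ± 2.66 at day 7. The other 8 loci together went from 234 ± 10.3 FPKM to 94.2 ± 39.6 and 80.1 ± 3.29, or 40.3% and 34.3% of sham, with no overlap of either time with sham. Most of the spread among sham libraries lay in Gbp6 and Gbp10, since the other loci summed to 244, 235 and 223 FPKM there.

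Gbp4, also on chromosome 5 and known in mice as an inhibitor of the interferon regulatory factor IRF7, had the smallest standard error of the 11 loci. It was at 42.3, 43.9 and 44.6 FPKM in the sham libraries, 8.003, 12.2 and 10.4 after 1 day and 10.7, 12.4 and 9.61 after 7 days. It fell by 2.01 at day 1 and 1.91 at day 7 (SE 0.14). Its levels at the 2 later times overlapped.

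Gbp9, a less studied member of the same cluster, moved less. It was at 19.8, 22.2 and 22.4 FPKM in the sham libraries, 11.7, 17.4 and 9.36 after 1 day and 11.3, 11.6 and 12.0 after 7 days. It fell by 0.74 and 0.83 (SE 0.18), and its call at day 1 was lost with TPM (-0.47), with TPM without mitochondrially encoded genes (-0.53) and without sham replicate 2, sham replicate 3 or day 1 replicate 1 (-0.72, -0.71 and -0.70). With TPM its day 7 call was lost too (-0.49).

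Gbp8 was near the limit of the filter. It was at 1.19, 0.888 and 0.963 FPKM in the sham libraries, 0.661, 1.44 and 0.162 after 1 day and 0.709, 2.51 and 0.826 after 7 days. The 3 groups overlapped and limma called it at neither time (log2 fold change -0.26 at day 1 and 0.14 at day 7, SE 0.33). The sign of its difference turned without day 1 replicate 3 (0.0026 at day 1) and without day 7 replicate 2 (-0.19 at day 7).

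**Figure D2:**
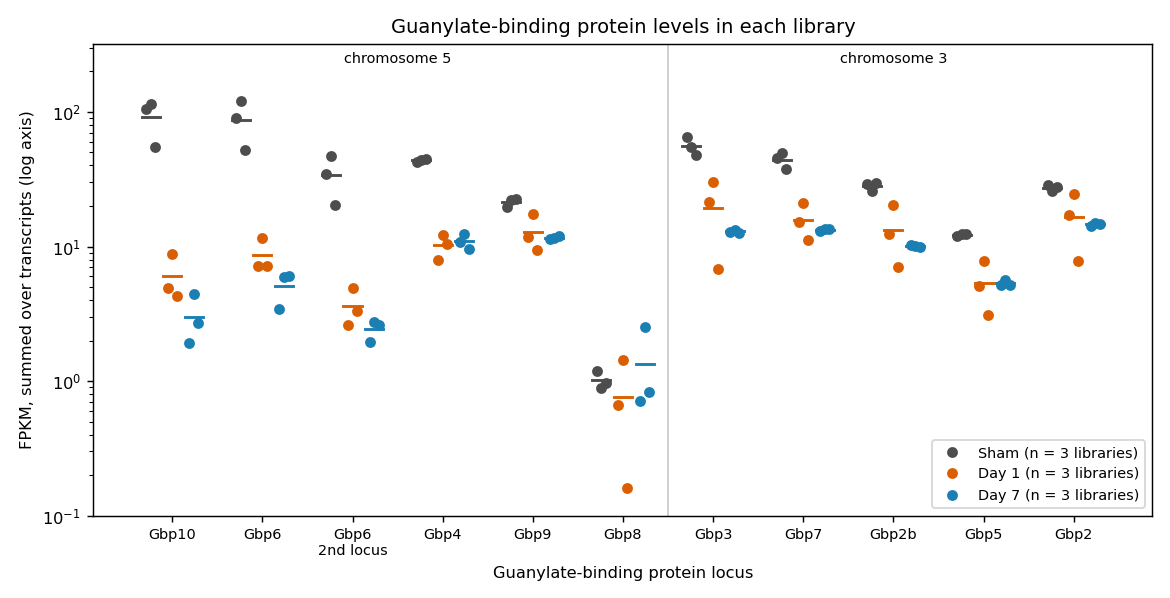
FPKM of each GBP locus (x axis, grouped by chromosome) in each library on a log axis, with bars at the group means (n = 3). Gbp10, Gbp6 and the second Gbp6 locus show the widest gap between sham and the later libraries, while the 3 groups of Gbp8 overlap.

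On chromosome 3, Gbp3 and Gbp7 differed most from sham. Gbp7, which in mice supports the assembly of the phagocyte oxidase, was at 45.7, 49.3 and 37.9 FPKM in the sham libraries, 15.1, 20.9 and 11.1 after 1 day and 13.0, 13.4 and 13.4 after 7 days. It fell by 1.47 and 1.66 (SE 0.19). Gbp3, its neighbour in the cluster, was at 64.9, 54.9 and 47.8 FPKM in the sham libraries, 21.4, 30.0 and 6.85 after 1 day and 12.7, 13.4 and 12.7 after 7 days. Its 3 day 1 libraries spread over a wider range than those of day 7, and it fell by 1.68 and 2.02 (SE 0.42). Its day 1 call was lost with TPM (-1.41), with the most expressed transcript alone (-1.40), and without sham replicate 1 (-1.57) or sham replicate 2 (-1.69).

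Gbp2b, Gbp2 and Gbp5 end in the CAAX motif through which a lipid anchors them to membranes. Gbp2b, also known as Gbp1, was at 29.2, 25.8 and 29.5 FPKM in the sham libraries, 12.4, 20.5 and 7.08 after 1 day and 10.2, 10.2 and 9.94 after 7 days. It fell by 1.14 and 1.39 (SE 0.29), and its day 1 call was lost in 6 of 23 alternatives: with TPM (-0.86), with TPM without mitochondrially encoded genes (-0.92), without sham replicate 1, 2 or 3 (-1.11, -1.20 and -1.10) and without day 1 replicate 1 (-1.14). Gbp5, which promotes inflammasome assembly, was at 12.0, 12.4 and 12.4 FPKM in the sham libraries, 5.10, 7.83 and 3.08 after 1 day and 5.15, 5.63 and 5.19 after 7 days, and fell by 1.13 and 1.07 (SE 0.23). Its day 7 call was lost with TPM (-0.75).

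Gbp2, which helps to expose bacterial DNA to the sensor AIM2, was the other locus that limma did not call. It was at 28.5, 25.8 and 27.5 FPKM in the sham libraries, 17.3, 24.8 and 7.77 after 1 day and 14.2, 14.9 and 14.8 after 7 days. The groups did not overlap with sham at either time, although day 1 replicate 2 came within about 1 FPKM of the lowest sham library. The log2 fold changes were -0.82 and -0.86 (SE 0.32). It was called at day 1 without day 1 replicate 2 (-1.16) and at day 7 without day 1 replicate 2 or day 1 replicate 3 (-0.86 in both), since the day 1 libraries enter the shared spread. It was also called at day 7 with array weights and with only the 2 groups in the fit.

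**Figure D3:**
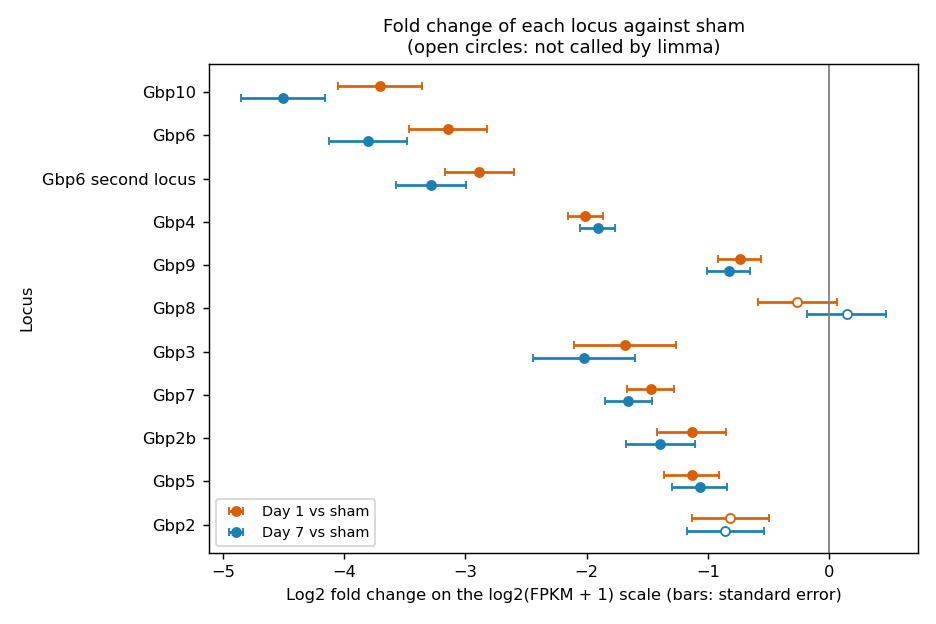
Log2 fold change against sham on the log2(FPKM + 1) scale (x axis) for each locus at day 1 and day 7, with bars for the limma standard error and open circles for loci not called. Values run from -4.50 for Gbp10 at day 7 to 0.14 for Gbp8 at day 7.

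The order of levels turned over between sham and day 7. In sham it ran Gbp10, Gbp6, Gbp3, Gbp7, Gbp4, second Gbp6 locus, Gbp2b, Gbp2, Gbp9, Gbp5 and Gbp8, from means of 91.4 to 1.01 FPKM. Neighbours overlapped as far down as Gbp2b and Gbp2, and below that Gbp2, Gbp9, Gbp5 and Gbp8 were each apart from the next. At day 7 it ran Gbp2, Gbp7, Gbp3, Gbp9, Gbp4, Gbp2b, Gbp5, Gbp6, Gbp10, second Gbp6 locus and Gbp8, from 14.6 to 1.35 FPKM. There Gbp2 lay apart from Gbp7, Gbp3 from Gbp9 and Gbp2b from Gbp5, and the other neighbours overlapped. At day 1 the second Gbp6 locus and Gbp8 were apart and all other neighbours overlapped. FPKM is a level per length, so loci can be compared within a library, subject to the shared sequence of Gbp6 and Gbp10.

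Between day 1 and day 7, limma called 0 of 11 loci, against 2.14% of all genes lower and 2.71% higher. The log2 fold changes of day 7 over day 1 ran from -0.80 to 0.41 with a median of -0.18. For 7 of the loci the sign turned in at least one alternative fit, and Gbp3 was called lower (-0.92) without day 1 replicate 3. The day 1 libraries spread more: the family sum had a coefficient of variation of 40.2% at day 1 and 6.55% at day 7.

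Day 1 replicate 2 had the highest level of 11 of 11 loci among the day 1 libraries, and day 1 replicate 3 the lowest of 9. In 9 of 11 loci, replicate 2 lay above replicate 1 and that above replicate 3, an order found in 15.4% of all genes tested. This order was looked for after the values were seen. Sham replicate 3 was the lowest sham library for 5 loci and the highest for 4. Over the 9 libraries, Pearson's r of log2(FPKM + 1) between pairs of loci ran from 0.0896 for Gbp8 and the second Gbp6 locus to 0.996 for the second locus and Gbp6. These r describe libraries that share groups, and Gbp6 shares sequence with its neighbours.

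Day 1 replicate 2 and sham replicate 1 also carried airway markers. The list held 4 genes, the airway genes Scgb1a1 and Scgb3a2 and the lung surfactant genes Sftpc and Sftpa1. Their summed level was 1661 FPKM in the former, 202 in the latter and 0 to 16.8 in the other 7 libraries. The 2 libraries differed in makeup. Scgb1a1 was at 780 FPKM in day 1 replicate 2 and 172 in sham replicate 1. Sftpc and Sftpa1 were at 728 and 145 FPKM in day 1 replicate 2, but at 0.062 and 0.46 in sham replicate 1. Without these libraries, an alternative chosen after seeing the data, 8 loci were called lower at day 1 and 9 at day 7. Of the 13514 genes tested, 146 were called lower at day 1 and 1047 at day 7 in that fit. The log2 ratio of the family sum was -2.30 at day 1 and -2.26 at day 7. Gbp3 then lost its day 1 call (-1.98).

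Markers of some other cell types moved with the groups, and others did not. The sum of 8 heart muscle genes was 30520 to 33220 FPKM in sham, 15700 to 19390 at day 1 and 12400 to 21860 at day 7. Heart muscle RNA was thus present in every library, but lower than sham at both times without overlap. At each time 5 of the 8 genes were called lower, against 14.7% of all genes at day 1 and 17.3% at day 7. Fibroblast markers (6 genes) summed to 993 to 1240.0 FPKM in sham, 1483 to 1965 at day 1 and 3627 to 5045 at day 7, with no overlap between groups. At day 7, 4 of the 6 were called higher, against 15.7% of all genes. Macrophage markers (8 genes) summed to 405 to 690.0 FPKM in sham, 665 to 1094 at day 1 and 839 to 1089 at day 7, and neutrophil markers (6 genes) to 47.2 to 64.5, 118 to 315 and 29.2 to 70.9. Endothelial markers (8 genes) overlapped between groups, at 360 to 387 FPKM, 331 to 465 and 353 to 508. The 4 atrial markers differed widely between libraries of a group. They summed to 2676, 1446 and 229 FPKM in the sham libraries, 10950, 4319 and 282 after 1 day and 5401, 771 and 1395 after 7 days. In sham replicate 2 most of the sum was Nppa (1413 FPKM). The 9 T and natural killer cell markers summed to 84.5 FPKM in day 7 replicate 2, 20.9 in day 1 replicate 2 and 3.01 to 8.79 elsewhere. T cell genes such as Cd3g (20.8 FPKM) and Cd8a (15.9) made the sum of day 7 replicate 2 high. The natural killer genes Nkg7, Ncr1 and Klrb1c were at 1.92, 0.931 and 0.136 FPKM there. In both libraries these stayed below the highest sham library. The GBP sum of day 7 replicate 2, 97.1 FPKM, was close to the 85.3 and 89.8 of the other day 7 libraries, while that of day 1 replicate 2, 160.4, was the highest of day 1, above 106 and 70.6. The part of these cells in the GBP levels was not tested.

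Transcript shares within a gene are given as a description, because no test here could call a difference. Of 21 comparisons of shares in Gbp3, Gbp4, Gbp7 and Gbp9, the libraries did not overlap in 6, all of them in Gbp3 and Gbp7 and all with day 7. Shares of one gene add up, so these are not independent. How often shares do not overlap over the transcripts of all genes was not counted. With 3 libraries a group, the smallest two-sided p of the exact permutation test is 0.1, which these 6 reached (0.35 after Benjamini-Hochberg adjustment), so no call was possible. The share of transcript ENSMUST00000106222 in Gbp3 was 35.9% ± 8.59 (SD, n = 3) in sham, 25.5% ± 4.35 at day 1 and 21.8% ± 2.44 at day 7, and ran from 29.6% to 45.7% in sham against 20.1% to 24.6% at day 7. That of ENSMUST00000171263 in Gbp7 was 31.5% ± 2.93, 34.7% ± 2.41 and 40.3% ± 2.41, with 37.8% to 42.6% at day 7 above the 29.7% to 34.9% of sham and the 32.8% to 37.4% of day 1.

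Genes of the interferon gamma pathway were lower in part. Ifng, the gene of the cytokine, was at 0.322 FPKM or less in all 9 libraries, 0 in day 7 replicate 1, and was too low to be tested. Of the 14 interferon gamma pathway genes tested, 2 rose and 5 fell at day 1, and 0 rose and 6 fell at day 7. Beside this, 13.4% of all genes rose and 14.7% fell at day 1, and 15.7% and 17.3% at day 7. The number that rose at day 1 was near that share. The list also holds inhibitors such as Socs3 and Ptpn2, so its counts do not describe the inducers of GBPs alone. Irf1 fell by 0.62 and 0.53 (SE 0.15, limma adjusted p = 0.0166 and 0.0261), with 4 and 9 of 23 alternatives losing the call. TPM gave -0.35 and -0.18, TPM without mitochondrially encoded genes -0.40 and -0.31, and the fit without the airway libraries -0.73 and -0.52. At day 7 quantile normalization gave -0.44. The other losses were without sham replicate 3 at day 1 (-0.57) and without sham replicate 1, 2 or 3 or day 7 replicate 1 or 3 at day 7 (-0.52, -0.59, -0.48, -0.47 and -0.46). The receptor chain gene Ifngr2 fell by 0.57 and 0.60 (SE 0.12, limma adjusted p = 0.0112 and 0.00918). Ifngr1, the other chain, was at 37.8 ± 1.28, 35.9 ± 1.73 and 44.3 ± 3.74 FPKM, and Irf8 at 5.84 ± 1.08, 8.23 ± 1.98 and 7.26 ± 1.39. Neither passed the test (limma adjusted p = 0.561 and 0.0791 for Ifngr1, 0.122 and 0.287 for Irf8). Socs3, an inhibitor of cytokine signalling, rose by 1.91 (SE 0.27) at day 1 (limma adjusted p = 0.0035).

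The IRGs, partners of the GBPs at vacuoles, were called lower in 8 of 9 cases at day 1 and at day 7. The shares of all genes called lower were 14.7% and 17.3%. The medians of the IRGs were -2.97 and -3.38. The greatest differences were in Gm4841, from 157 ± 52.0 to 1.70 ± 0.947 and 1.77 ± 1.19 FPKM, and F830016B08Rik, from 884 ± 321 to 22.6 ± 3.95 and 17.7 ± 10.6. IRG genes include closely similar copies among which reads may be split, so the level of any one IRG is uncertain. Of the immunoproteasome and MHC class I genes, 10 of 11 fell at day 1 and 9 at day 7, beside the same shares of all genes. These genes are also interferon gamma targets and serve antigen presentation. Psmb10, an immunoproteasome subunit, fell from 80.6 ± 11.6 to 23.0 ± 4.59 and 27.2 ± 3.08 FPKM, and the MHC class I light chain gene B2m from 1432 ± 155 to 641 ± 182 and 658 ± 104. Cxcl9, a chemokine that interferon gamma induces, fell by 1.40 and 1.26 (SE 0.23, limma adjusted p = 0.00543 and 0.00739). Cxcl10, the other chemokine of that list tested, was called at neither time. Its log2 fold changes were 0.46 and -0.81 (SE 0.43, limma adjusted p = 0.456 and 0.175).

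The next counts stand beside 13.4% of all genes called higher and 14.7% lower at day 1, and 15.7% and 17.3% at day 7. Of 16 genes of the type I interferon response, which cells make against viruses, 4 rose and 0 fell at day 1 (Oas3 2.29, Oasl1 1.45, Dhx58 1.36 and Oas2 1.11), while at day 7 none rose and Ifit1 fell by 1.71. All 16 were highest in day 1 replicate 2 and lowest in day 1 replicate 3 among the day 1 libraries. Inflammasome and pyroptosis genes, the machinery that GBPs feed, rose in 5 of 8 cases at day 1 and in 3 at day 7. Il1b (1.84) and Nlrp3 (1.09) rose at day 1 only. Casp4 (0.98 and 0.55, SE 0.15), Gsdmd (0.54 and 0.52) and Aim2 (0.39 and 0.37) rose at both times. Of the 10 genes of ATG8 conjugation, which places GBPs on vacuoles, 1 rose and 1 fell at day 1, and 1 rose and 2 fell at day 7, shares near those of all genes. Of the 6 genes of CAAX prenylation, Fnta fell at day 1 (-0.52, SE 0.11) and none was called at day 7. Of the 3 atlastins, GTPases related to GBPs in structure, Atl3 rose at both times (0.45 and 0.63, SE 0.11) and Atl2 fell at day 7 (-0.41, SE 0.12). Of 23 alternatives, 14 ended the call of Atl2 and 6 those of Ifit1 and Casp4 at day 7, and 3 to 4 ended those at day 1 of Oasl1, Oas2, Fnta and Atl3. For Oas3 and Dhx58, which 22 alternatives tested, 1 and 5 ended it at day 1. Gsdmd lost its call in 10 of 23 alternatives at day 1 and 11 at day 7, and Aim2 lost its day 7 call in 5. At day 1, Il1b lost its call in 1 of 23 alternatives and Nlrp3 in 3 of 21.

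**Figure D4:**
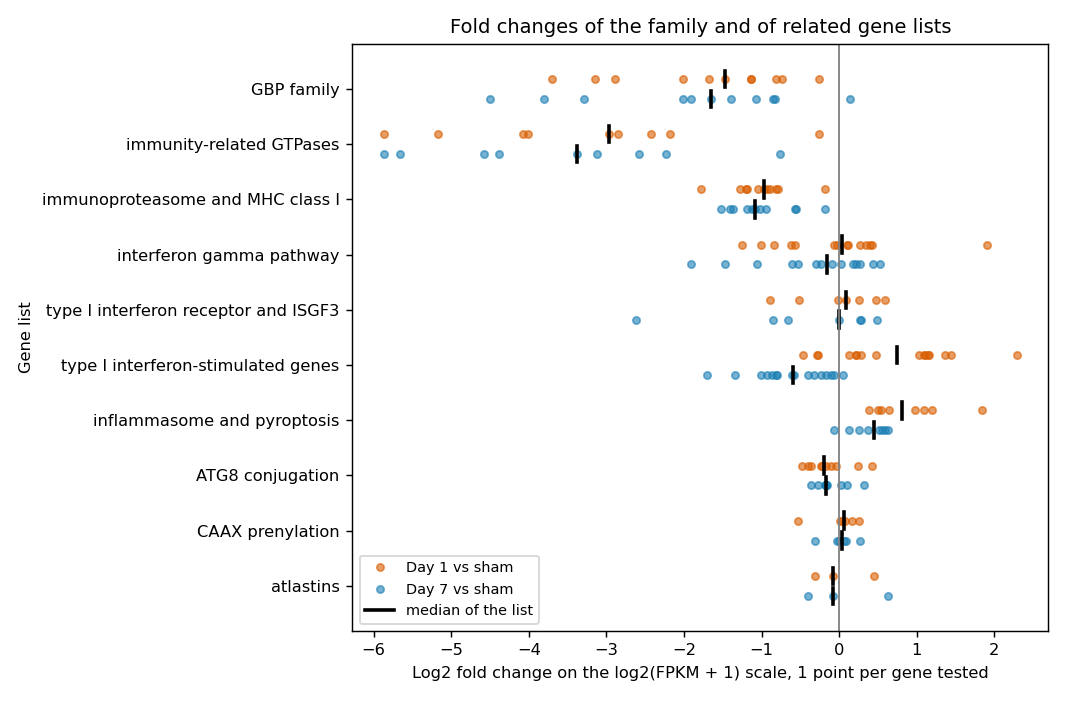
Log2 fold change against sham on the log2(FPKM + 1) scale (x axis) of every tested gene of the GBP family and related lists (y axis), with a bar at each median. The medians are -1.47 and -1.66 for GBPs and -2.97 and -3.38 for IRGs, and 0.75 and -0.59 for type I interferon-stimulated genes.

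The genes whose level followed the summed GBP level most closely over the 9 libraries were mostly IRGs. Pearson's r of log2(FPKM + 1) with the GBP sum was 0.997 for Irgm1, 0.994 for Irgm2 and Tgtp2, 0.991 for Iigp1 and 0.990 for Igtp. It was 0.985 for Tap2, a peptide transporter, and 0.982 for Pex13, a peroxisomal import protein, and Cd274, the gene of PD-L1. Irgm1 was at 251 ± 64.5 FPKM in sham, 32.8 ± 15.3 at day 1 and 22.6 ± 1.52 at day 7. Cd274 was at 15.6 ± 3.03, 2.67 ± 1.55 and 2.33 ± 0.89 FPKM. These genes were picked for their r among 13514 genes, so r is a description of these 9 libraries.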

How the data were processed

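Per the labels, heart RNA came from a TRIzol extraction and a VAHTS Universal V6 library kit. HTSeq 0.11.2, HISAT2 2.1.0 and FastQC 0.11.9 were used, with GRCm39 as the build, per the submitters' processing notes. The sources used here do not give the annotation release, the use of strand or the tool behind the per-transcript values. The authors deposited FPKM per transcript. Of the positive values, 11.8% were under 1e-06, so whole reads were not recoverable and library depths are unknown. FPKM summed to 521643 to 792632 per library. Hearts of Hdc-/- mice, which the series also describes, were not analysed here.

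FPKM was summed per gene ID and tested on the log2(FPKM + 1) scale (limma 3.58.1, R 4.3.3), with a variance trend, 1 mean per group and 1 spread for the 9 libraries, on the 13514 of 25468 genes with a mean of 1 FPKM or more. Tests were two-sided, with Benjamini-Hochberg adjustment over all genes tested and calls at an adjusted p under 0.05. The procedure was tested on simulated data. This scale understates changes of low genes. The labels do not say that libraries came from separate animals, so p-values measure the spread between libraries, which may be technical.

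The members and the 21 lists (155 of 158 entries in the file) were chosen with earlier results of these data known. Members were given without p-values. Named were all members, up to 4 called genes of each list per comparison with the largest absolute fold change, Ifng, Ifngr1, Ifngr2, Irf1 and Irf8, and the 8 genes most correlated with the family sum. A further gene that the rule names is not reported here. Transcript sequences came from GENCODE M21 (GRCm38) and promoters from RefSeq (GRCm38.p6), and no coordinate was converted. Alternatives to each choice, 23 in all, covered the pseudocount (0.1), filters (none, or 5 FPKM), scaling, the variance model, the samples fitted, a replicate block, array weights, the most expressed transcript and leaving out libraries. One, without the 2 libraries with airway markers, was added after seeing the data.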

Additional observations from a re-analysis of the deposited data

Results flagged for a closer look

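No GBP locus differed between day 1 and day 7 by limma, and 2.14% of all genes were called lower and 2.71% higher. In the related lists, 8 genes were called in this direct test, all lower (limma, Benjamini-Hochberg adjusted p from 0.0249 for Socs3 to 0.0465 for Nlrp3). They were 4 of 16 type I interferon-stimulated genes and 2 of 14 interferon gamma pathway genes. The others were 1 of 8 inflammasome and pyroptosis genes and 1 of 10 ATG8 conjugation genes. On the log2 scale, the type I interferon-stimulated genes Oas3, Ifi44, Oasl1 and Oas2 were at -2.39, -1.83, -1.68 and -1.28. The cytokine signalling inhibitors Socs3 and Ptpn2 were at -1.48 and -0.49. The inflammasome sensor Nlrp3 was at -1.16 and the ATG8-conjugating enzyme Atg3 at -0.41. Each call was lost in 6 to 17 of the 21 to 23 alternatives that tested the gene.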

How the results depend on the processing

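Depth is unknown and sham serves both times, so the values rest on the spread of 3 libraries a group. TPM moved the median of all genes by 0.23 at day 1 and 0.30 at day 7, and TPM without mitochondrially encoded genes by 0.18 and 0.19. Higher calls as a share of all calls went from 47.7% to 80.0% and 79.9% at day 1 and from 47.6% to 87.7% and 78.4% at day 7. GBP loci called lower numbered 6 and 7 with TPM and 7 and 9 without mitochondrially encoded genes, and 6 to 10 (day 1), 9 to 10 (day 7) and 0 to 1 (day 7 against day 1) when 1 library was left out. Over all genes tested, 598 and 526 were called lower with TPM, and 894 and 1043 without mitochondrially encoded genes. The log2 ratio of the family sum at day 7 was -1.94 with TPM.

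Over all genes, calls lower at day 1 numbered 598 with TPM, 894 with TPM without mitochondrially encoded genes, 3027 with array weights, 146 without the airway libraries and 790 to 2299 with 1 library left out. Higher calls numbered 1199 with the 5 FPKM filter, 3544 without mitochondrially encoded genes, 256 without the airway libraries and 968 to 1957. At day 7, lower calls numbered 526, 1043 and 1047 with TPM, without mitochondrially encoded genes and without the airway libraries, and 1042 to 2618. Higher calls numbered 1310 with the 5 FPKM filter, 3757, 3790 and 1078 in the same order, and 1124 to 2276. For day 7 against day 1, lower calls numbered 77 (TPM), 88 (only the 2 groups), 466 (array weights), 26 (no airway libraries) and 62 to 244. Higher calls numbered 242 (5 FPKM filter), 117, 78, 584 and 34 in the same order, and 75 to 275. The replicate block gave 93 lower and 144 higher calls there and left 9, 9 and 0 GBP loci called lower. Deviations of same-numbered libraries correlated from -0.37 to 0.27, so the numbers were not taken as pairs. The cause of these shifts was not tested.

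Signs turned in 42 of the alternative values of the named genes, all but the one for Atg12 of uncalled differences. Over the fits with 1 library left out, log2 fold changes of these genes for day 7 against day 1 were Cd274 -0.31 to 0.23, Gbp2 -0.47 to 0.30, Gbp2b -0.61 to 0.091, Gbp3 -0.92 to 0.072, Gbp4 -0.049 to 0.23, Gbp5 -0.22 to 0.34, Gbp7 -0.39 to 0.032, Gbp9 -0.28 to 0.14, Ifngr2 -0.13 to 0.063, Iigp1 -0.58 to 0.029, Irf1 -0.036 to 0.21, Irf8 -0.27 to 0.014, Tap2 -0.13 to 0.17, Tgtp2 -0.40 to 0.18. For Gbp8 they were -0.53 to 0.0026 at day 1 and -0.19 to 0.33 at day 7. The positive ends for Gbp2, Gbp2b, Gbp3, Gbp7, Gbp9, Cd274, Tgtp2, Iigp1, Irf8 and Tap2 came without day 1 replicate 2, and the fit without the airway libraries gave these genes the same values. For day 7 against day 1, TPM turned Gbp2 (0.032), Tap2 (0.057) and Ifngr2 (0.045), and array weights turned Gbp5 (-0.16) and Ifngr2 (0.0998). The further turns with 1 library left out were Gbp2 (0.054), Gbp4 and Irf1 (-0.02) without day 1 replicate 1, Gbp5 and Ifngr2 (0.055) without day 1 replicate 3, Cd274 (0.039), Ifngr2 and Tap2 (0.039) without day 7 replicate 1, Irf1 without day 7 replicate 2 and Tap2 (0.013) without day 7 replicate 3. Against sham, Gbp8 turned at day 7 with quantile normalization (-0.029). Ifngr1 turned at day 1 with quantile normalization, TPM and TPM without mitochondrially encoded genes (0.045, 0.20 and 0.15). The called fall of Atg12 at day 7 (-0.28) turned with TPM (0.055).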
